A study of Saccharomyces cerevisiae with 34 samples.

Results

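The fission yeast Schizosaccharomyces pombe was present in every culture sample of this budding yeast study as an added reference, and its own nascent RNA was compared here with its own total RNA. All rows of the deposited count table that carry an S. pombe gene ID were taken, which was 5143 of 10533 rows, and all libraries of 4-thiouracil-labelled budding yeast, which was 32 of 34. Of these, 18 were nascent RNA and 14 were total RNA, and 14 nascent libraries had a total RNA library of the same strain, treatment and replicate number. The remaining 4 nascent libraries had no such partner.

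The S. pombe cells had received 4-thiouracil (4tU) and no inhibitor, and were mixed in as whole cells ahead of lysis in the ratio 1 to 6. The host was Saccharomyces cerevisiae BY4741, either wild type (WT) or with 1 of the KIN28 alleles kin28as and kin28is, which make the TFIIH kinase Kin28 sensitive to ATP-analog inhibitors. Host cultures were given DMSO, 1-NAPP-1 or CMK for 1 h and 5 mM 4tU for the last 6 min. For the labelled libraries, the labels mark replicate 1 of each group as 2 µM and every later replicate as 5 µM, DMSO libraries included, so dose and replicate set cannot be told apart. The 2 µM set held 8 pairs: WT with DMSO, 1-NAPP-1 and CMK, kin28as with DMSO and 1-NAPP-1, and kin28is with DMSO, 1-NAPP-1 and CMK. The 5 µM set held WT and kin28is with the same 3 treatments, in 10 nascent and 6 total libraries. A further nascent and total pair, from WT cells with DMSO that were not given 4tU and marked 5 µM in the labels, entered no test and was read as a held-out pair, since the S. pombe cells in it were labelled too. The sources used here do not give the genotype, growth or labelling time of the S. pombe cells.

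4tU is taken up by growing yeast cells and built into RNA in place of uracil, so that RNA made during the labelling carries a thiol group. The thiol is joined to biotin and the labelled RNA is pulled down with streptavidin. A transcript's place in nascent RNA therefore follows mainly how fast it is made, while its place in total RNA also follows how long it lasts, and stable RNAs are known to take up a smaller share of nascent than of total RNA. Fission yeast genes lie on a trio of nuclear chromosomes and a small mitochondrial genome, which has its own RNA polymerase and encodes mainly subunits of the respiratory chain and ATP synthase.

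S. pombe reads numbered 170554 to 3964902 per nascent library (median 723184) and 477030 to 4777302 per total library (median 1446401). Both nascent libraries under 200000 S. pombe reads belonged to the 5 µM set: WT with DMSO replicate 2 (178939 reads) and kin28is with 1-NAPP-1 replicate 2 (170554 reads). Levels are reads per 1000000 S. pombe reads (RPM), which are not divided by gene length and sum to the same total in every library, so a difference is always relative to the other S. pombe genes. The libraries measure the same kind of added cells repeatedly and the labels do not say that S. pombe cultures were separate, so p-values describe the spread between libraries, which may be technical. The files and the reference tables do not pair S. pombe IDs with gene names, so genes are given by ID, with at most 2 per direction in a comparison, and lists of pathways could not be applied. The sources used here do not say if reads were counted by strand, so genes that overlap another gene are uncertain.

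Most S. pombe genes took a different share of nascent than of total RNA. Of the 5143 genes, 4837 passed the filter on low counts and 306 did not; 32 had no read in any of the 32 libraries. By edgeR's quasi-likelihood test with Benjamini-Hochberg adjustment, 1884 genes were higher in nascent RNA (38.9% of those tested) and 1876 were lower (38.8%). Differences of at least 2-fold were found for 247 genes that were higher (5.11%) and 572 that were lower (11.8%). Leaving out single libraries gave 164 to 257 on the higher side, with the lowest count without nascent WT with CMK replicate 2 and 178 or more without any other library, and 564 to 658 on the lower side. Low counts of higher genes were not confined to that library. Without any 1 of the total libraries of the 2 µM set, 179 to 186 genes were at least 2-fold higher and 614 to 628 lower. In these fits the median log2 difference was -0.06. The 11 DMSO libraries alone gave 380 and 692. The lower side reached further: 156 genes were at least 4-fold lower and 8 at least 8-fold lower, against 3 and 1 on the higher side. The median log2 difference was -0.0017. The 5th and 95th percentiles were -1.57 and 1.00, and the 25th and 75th were -0.53 and 0.47. This split depends on the scaling: with S. pombe read totals and no composition factor, the median gene moved up by 0.24 on the log2 scale and 2483 genes were called higher and 1294 lower, which is 65.7% higher calls against 50.1%. On that scaling 571 genes were at least 2-fold higher and 394 at least 2-fold lower.

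**Figure D1:**
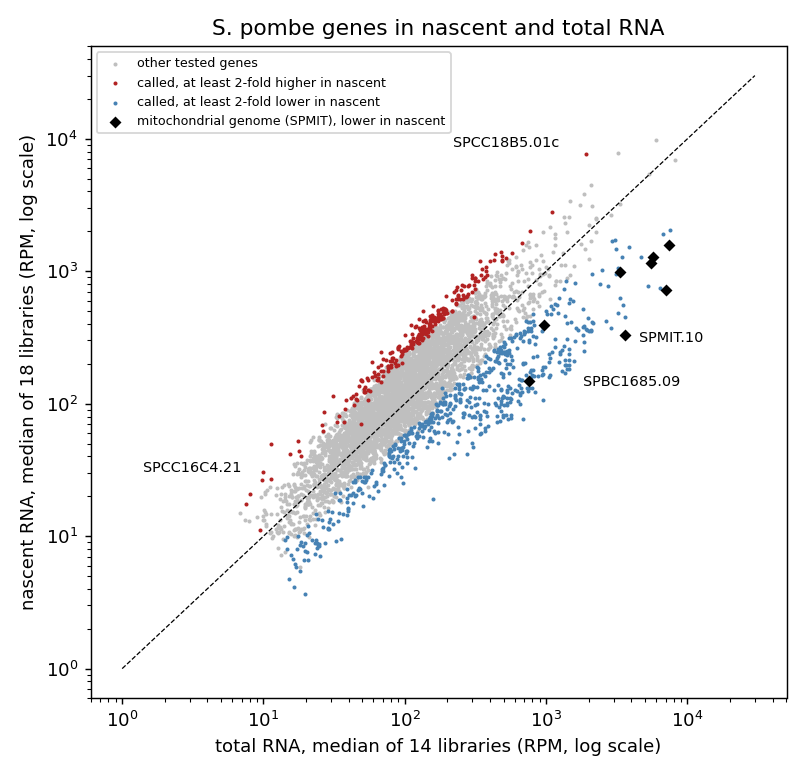
Each point is 1 of the 4837 tested S. pombe genes, with its median level in 14 total RNA libraries on the x axis and in 18 nascent RNA libraries on the y axis (RPM, both axes logarithmic; the dashed line marks equal levels). Genes called at least 2-fold lower in nascent RNA (blue, 572) reach further from the line than those called at least 2-fold higher (red, 247), and the 8 mitochondrial genes (black diamonds) lie below the line at high total RNA levels.

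Of the 4837 tested genes, 1189 were called higher and 664 lower with a mean of at least 10 RPM and the same direction in all 14 pairs. Directions in pairs used RPM without the composition factor, a scaling on which the median gene was higher in nascent RNA by 0.24 (log2). The counts therefore do not show that steady increases outnumber steady decreases. The 2 genes with the largest difference on each side were followed through the libraries. SPCC18B5.01c, on chromosome III by its ID, had 1535 RPM in the lowest total library, a median of 1929 RPM and 2235 RPM in the highest. In nascent RNA it had 4915 RPM in the lowest library, a median of 7689 RPM and 13612 RPM in the highest. Every nascent library was above every total library. The followed genes were picked for a large difference in these same libraries, so separation of their groups adds no support of its own. The share of all tested genes without overlap was not counted. The fitted log2 difference was 1.86 ± 0.121 (SE, 18 against 14 libraries), a 3.62-fold higher level, with an edgeR adjusted p of 5.94e-17.

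SPCC16C4.21, on the same chromosome by its ID, was a low-count gene in total RNA, with 4.03 RPM in the lowest library, a median of 9.80 RPM and 16.2 RPM in the highest. Its nascent values ran from 19.8 RPM over a median of 26.7 RPM to 182 RPM. The groups again did not overlap, and the top nascent values of 182 and 123 RPM came from the 2 libraries under 200000 S. pombe reads, where they rest on 31 and 22 reads. The log2 difference was 1.65 ± 0.271 (SE, edgeR adjusted p 8.87e-07), a 3.13-fold higher level.

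SPMIT.10, a gene of the mitochondrial genome by its ID, had 2954 RPM in the lowest total library, a median of 3590 RPM and 5580 RPM in the highest. In nascent RNA it ran from 196 RPM over a median of 329 RPM to 886 RPM. No nascent library reached the lowest total library. The log2 difference was -3.49 ± 0.176 (SE, edgeR adjusted p 4.63e-20), which is 11.2-fold lower in nascent RNA.

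SPBC1685.09, on chromosome II by its ID, varied widely in total RNA, from 542 RPM over a median of 1446 RPM to 4761 RPM. Its nascent values ran from 76.1 RPM over a median of 213 RPM to 570 RPM. The groups overlapped only where the highest nascent library, WT with DMSO replicate 2, passed the lowest total library, kin28as with 1-NAPP-1 replicate 1. The log2 difference was -3.30 ± 0.297 (SE, edgeR adjusted p 7.00e-13), a 9.84-fold lower level. Its total RNA level differed between the sets of libraries, with a median of 956 RPM in the 2 µM set and 3059 RPM in the 5 µM set (log2 difference 1.60 ± 0.222, SE, edgeR adjusted p 6.14e-05), while the nascent medians were 208 and 221 RPM.

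The mitochondrial genome was the one class readable from the IDs that stood on one side throughout. Of its 11 rows, 8 passed the filter and all 8 were lower in nascent RNA by at least 2-fold, where 11.8% of all tested genes were, and each was lower in 14 of 14 pairs. The other rows, SPMIT.02, SPMIT.03 and SPMIT.06, had 0 reads in every library. The 8 log2 differences ran from -1.52 to -3.49, or 2.87-fold to 11.2-fold lower, with a median of -2.33, against -0.0017 for all tested genes. Their median levels lay between 752 and 7460 RPM in total RNA and between 148 and 1569 RPM in nascent RNA. All 8 had at least 507.6 RPM in every total library, which places them in the top of 10 classes by total RNA level, described below. In that class 46.7% and 52.5% of genes were at least 2-fold lower without a test, and the median differences were -0.90 and -1.13. The share of 11.8% is therefore not that of genes at a like level. SPMIT.10, with the largest difference, had a total median of 3590 RPM, in the middle of that range.

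Summed over the class, mitochondrial reads made up 2.95% to 3.89% of S. pombe reads in total RNA, with a mean of 3.43% ± 0.283 (SD, n = 14). In nascent RNA they made up 0.423% to 1.58%, with a mean of 0.732% ± 0.290 (SD, n = 18). No nascent library reached the range of the total libraries. Within pairs the share was lower in nascent RNA in 14 of 14, by a mean log2 of -2.41 ± 0.458 (SD, n = 14), or 5.30-fold (two-sided exact paired permutation test, p = 0.000122, the smallest that 14 pairs allow, or 0.000244 adjusted over the 2 shares tested). Without pairing, over all 32 libraries, the log2 difference was -2.31 (two-sided permutation test, p = 2.00e-05, the smallest that the resamples allow).

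The mitochondrial difference was smaller in the 5 µM set. The mean log2 difference was -2.65 ± 0.252 (SD, n = 8 pairs, 6.27-fold) in the 2 µM set and -2.08 ± 0.485 (SD, n = 6 pairs, 4.23-fold) in the 5 µM set, and the sets differed by 0.57 (two-sided exact permutation test, p = 0.0113, or 0.0127 adjusted over the 2 shares tested). Leaving out single pairs gave 0.40 to 0.68. The test did not match pairs of the sets by strain and treatment, and kin28as was in the 2 µM set alone. The median share in total RNA was 3.37% in the 2 µM set and 3.45% in the 5 µM set, and in nascent RNA it was 0.550% and 0.744%. The highest nascent shares were 1.58% in WT with 1-NAPP-1 replicate 2 and 1.27% in kin28is with CMK replicate 3, and the lowest, 0.423%, was in WT with CMK replicate 1. The held-out pair had 3.41% in total and 0.749% in nascent RNA, inside the range of the labelled libraries of each kind.

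**Figure D2:**
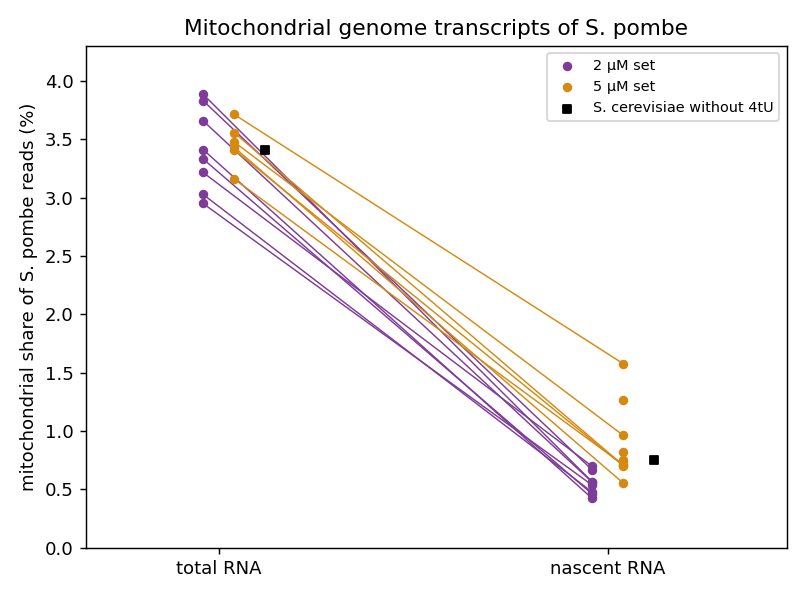
Share of S. pombe reads on mitochondrial genes (percent, y axis) in total and nascent RNA; each point is 1 library, lines join the 14 pairs, colour gives the dose set, and black squares are the held-out pair whose budding yeast had no 4tU. Every line falls, and the nascent libraries (0.423% to 1.58%) lie below all total libraries (2.95% to 3.89%).

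The nuclear chromosomes did not stand apart in this way. Among genes whose ID prefix places them on chromosome I, 39.1% of 2183 tested were higher and 37.8% lower. For chromosome II the values were 38.4% and 40.1% of 1779, and for chromosome III 40.0% and 38.1% of 867. Nuclear IDs that end in c, which mark the complementary strand, were higher in 39.2% and lower in 37.5% of 2383 genes. Those without it were higher in 38.9% and lower in 39.8% of 2446. Class medians lay between -0.02 and 0.03 on the log2 scale. The 4 rows of the mating-type region held 1 read in all 32 libraries together and were not tested.

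The genes with the most reads in total RNA were lower in nascent RNA more often than the others. To keep the level and the difference apart, genes were ranked by their total RNA level in one set of libraries and the difference of mean log2(RPM + 1) was taken from the other set. In the top of 10 equal classes by the 2 µM set (392 RPM and above), the median difference in the 5 µM set was -0.90 on the log2 scale relative to the median gene, and 46.7% of its 484 genes were at least 2-fold lower, where 10.8% of all tested genes were. In the top class by the 5 µM set (378 RPM and above), the median difference in the 2 µM set was -1.13, and 52.5% were at least 2-fold lower, where 14.2% of all tested genes were. The medians of the other 9 classes lay between -0.13 and 0.18. RPM grows with gene length as well as with abundance, so these classes rank genes by reads and not by molecules.

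**Figure D3:**
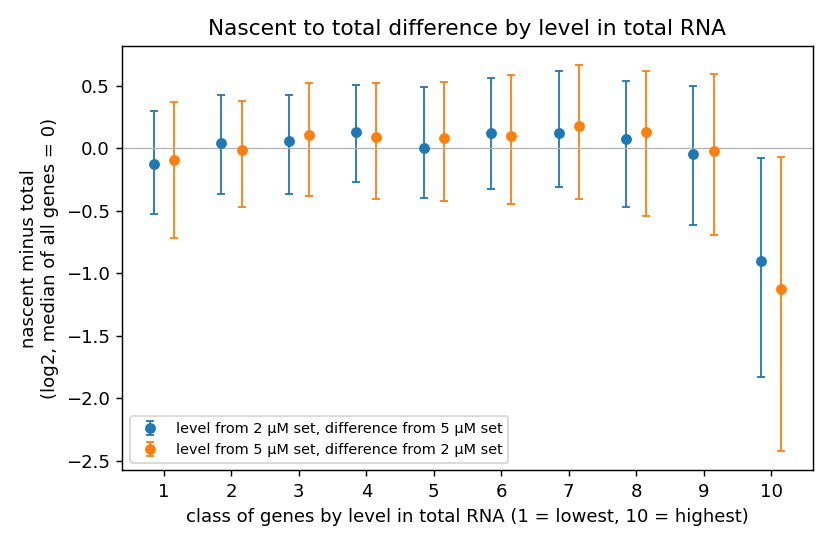
Genes in 10 equal classes by their level in total RNA in one set of libraries (x axis, 1 is lowest) and the nascent minus total difference in the other set (y axis, log2, with the median of all genes at 0); points are medians and bars span the 25th to the 75th percentile of the genes in a class. The classes from 1 to 9 lie within -0.13 to 0.18, and the top class lies at -0.90 and -1.13.

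Reads were spread over more genes in nascent RNA. The genes that together hold 50% of S. pombe reads numbered 385 to 590 in total RNA (median 464.5) and 593 to 817 in nascent RNA (median 687.5), so that the groups did not overlap. The held-out pair did not show this difference, with 689 genes in total and 692 in nascent RNA. The 10 most read genes held 6.33% to 7.14% of S. pombe reads in total libraries and 4.92% to 10.8% in nascent libraries, where the highest share, 10.8% in kin28is with CMK replicate 2, includes 6.77% from SPAC4F10.13c alone.

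The differences were alike in both sets of libraries, which share no sample. Of 4706 genes tested in each, 3579 were called in the 2 µM set (76.1%) and 3033 in the 5 µM set (64.4%). The 2852 genes called in both in the same direction were 79.7% of the first list and 94% of the second, and 4 genes were called in opposite directions. Of 879 genes that were at least 2-fold different in the 2 µM set, 878 had the same sign in the 5 µM set. Across the 4706 genes, which are not independent replicates, the log2 differences had a Pearson r of 0.946. The 4 followed genes, picked for the same direction in the pairs of both sets, had log2 differences of 1.71 and 2.02 for SPCC18B5.01c in the 2 µM and 5 µM sets, 1.53 and 1.77 for SPCC16C4.21, -4.07 and -3.01 for SPMIT.10, and -2.63 and -3.82 for SPBC1685.09.

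**Figure D4:**
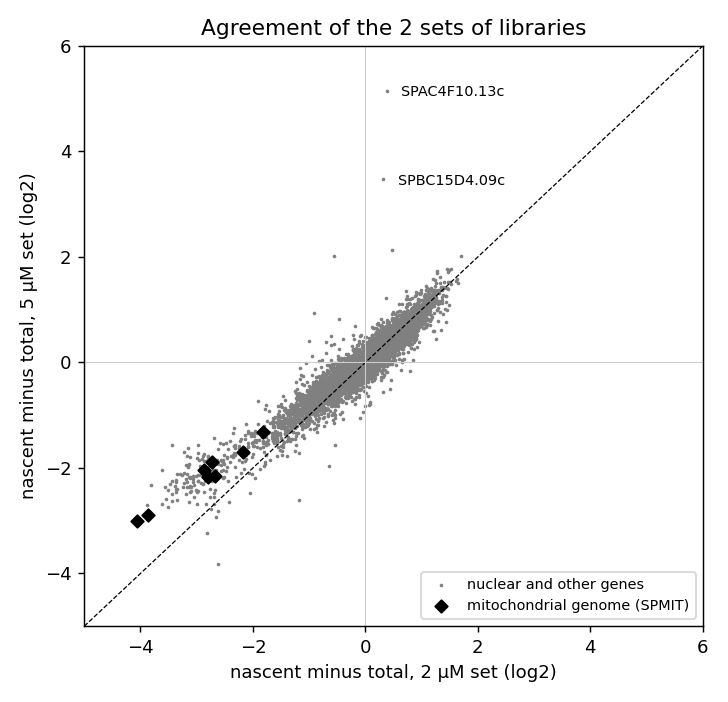
Nascent minus total log2 difference of 4706 S. pombe genes in the 2 µM set (x axis) and the 5 µM set (y axis); diamonds are mitochondrial genes and the dashed line marks equal differences. Most genes follow the line (r = 0.946 across genes), the mitochondrial genes lie above it, and SPAC4F10.13c and SPBC15D4.09c stand far above it.

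The held-out pair, which no fit used, showed the same directions. Of 1884 genes called higher, 1720 (91.3%) were above the median gene in its nascent against total difference, and of 1876 called lower, 1667 (88.9%) were below it, where 2418 of all 4837 tested genes lay on each side. For the genes at least 2-fold different, this held for 244 of 247 and 570 of 572. SPCC18B5.01c went from 1686 RPM in total to 9554 RPM in nascent RNA, and SPCC16C4.21 from 13.1 to 47.4 RPM. SPMIT.10 went from 2418 to 438 RPM, and SPBC1685.09 from 2686 to 182 RPM. Across genes, these differences had a Pearson r of 0.828 with the fitted ones.

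Nascent libraries varied more among themselves than total libraries did. Between 2 nascent libraries, the correlation of log2(RPM + 1) across genes ran from 0.810 to 0.991 (median 0.944, 153 comparisons of 2 libraries), between total libraries from 0.952 to 0.990 (median 0.975, 91 comparisons), and between a nascent and a total library from 0.690 to 0.898. Over 2722 genes with a mean of at least 100 RPM, the median SD of a gene was 0.258 log2 units in nascent and 0.162 in total RNA. Within the 2 µM set it was 0.172 and 0.152, and within the 5 µM set 0.284 and 0.131. The held-out nascent library correlated with labelled nascent libraries at 0.869 to 0.972 and with total libraries at 0.777 to 0.815.

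At an adjusted p under 0.05, a small part of the genes differed between the sets of libraries within an RNA fraction. In nascent RNA, 165 of 4752 tested genes differed (3.47%; edgeR's quasi-likelihood test), 89 higher (1.87%) and 76 lower (1.6%) in the 5 µM set. In total RNA, 310 of 4969 differed (6.24%), 121 higher (2.44%) and 189 lower (3.8%). At an unadjusted p under 0.05 by the same test there were 929 genes in nascent and 1109 in total RNA, more than chance alone gives on average. DESeq2 called 284 and 456. In nascent RNA 24 genes were at least 2-fold higher in the 5 µM set (0.505%) and 2 at least 2-fold lower (0.0421%), and in total RNA 10 were at least 2-fold higher (0.201%). The counts moved with single libraries: leaving out any of the 8 nascent libraries of the 2 µM set gave 58 to 92 genes, leaving out kin28is with 1-NAPP-1 replicate 3 gave 107 and kin28is with CMK replicate 4 gave 101. In total RNA, leaving out kin28as with DMSO replicate 1 gave 201, WT with 1-NAPP-1 replicate 2 gave 170, WT with DMSO replicate 2 gave 512 and kin28is with DMSO replicate 2 gave 622.

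The 2 genes that were at least 2-fold lower in nascent RNA of the 5 µM set are named for that count, after their values were seen. SPAC3F10.19 had 332 to 472 RPM in the 2 µM set (median 400.0) and 112 to 219 RPM in the 5 µM set (median 174), with no overlap and a log2 difference of -1.15 ± 0.111 (SE, edgeR adjusted p 9.48e-07). SPAC19D5.11c, a low gene, had 39.6 to 117 RPM in the 2 µM set and 16.8 to 28.6 RPM in the 5 µM set, with a log2 difference of -1.29 ± 0.194 (SE, edgeR adjusted p 0.00078).

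The nascent to total difference itself changed between the sets for 77 of 4941 genes (1.56%; edgeR's quasi-likelihood test of the interaction), 62 toward higher (1.25%) and 15 toward lower (0.304%) in the 5 µM set. This count moved with the libraries used. Without the 2 libraries under 200000 S. pombe reads 189 genes passed. In the 28 paired libraries alone 33 passed, and 7 with the pair added as a replicate block. Leaving out 1 nascent library gave 46 genes without kin28is with DMSO replicate 1, 130 without kin28is with DMSO replicate 2 and 148 without kin28is with 1-NAPP-1 replicate 2. Leaving out 1 total library gave 43 without kin28as with DMSO replicate 1, 49 without WT with 1-NAPP-1 replicate 2, 48 without WT with CMK replicate 2, 40 without kin28is with CMK replicate 2 and 119 without WT with DMSO replicate 2. The gene with the largest value in the plot of both sets, SPAC4F10.13c, was singled out after its values were seen. It had 459 to 749 RPM in the nascent libraries of the 2 µM set and 1042 to 67729 RPM in those of the 5 µM set, with no overlap. Total RNA stayed between 248 and 734 RPM in both sets together. The change of its log2 difference was 4.76 ± 0.820 (SE, edgeR adjusted p 0.00167).

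The high values of SPAC4F10.13c were uneven over libraries. In kin28is with CMK it had 67729, 34004 and 5451 RPM in replicates 2, 3 and 4, and in kin28is with DMSO 1341 and 1042 RPM in replicates 2 and 3. In kin28is with 1-NAPP-1 it had 25652 and 4919 RPM in replicates 2 and 3. In WT it had 9109 RPM with DMSO, 2894 RPM with 1-NAPP-1 and 1939 RPM with CMK, and the held-out nascent library had 2847 RPM. The DMSO values were the lowest of these kin28is libraries, while in WT the DMSO value was the highest. The values of 25652 and 9109 RPM came from the 2 libraries under 200000 S. pombe reads. What set the high libraries apart was not tested. SPBC15D4.09c, also singled out after its values were seen, had 406 to 563 RPM in nascent RNA of the 2 µM set and 283 to 429 RPM in total RNA. In nascent RNA of the 5 µM set it had 28419 RPM in kin28is with 1-NAPP-1 replicate 2, 11278 RPM in WT with DMSO replicate 2, 1527 and 1031 RPM in kin28is with CMK replicates 2 and 3, and 285 to 430 RPM in the others.

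**Figure D5:**
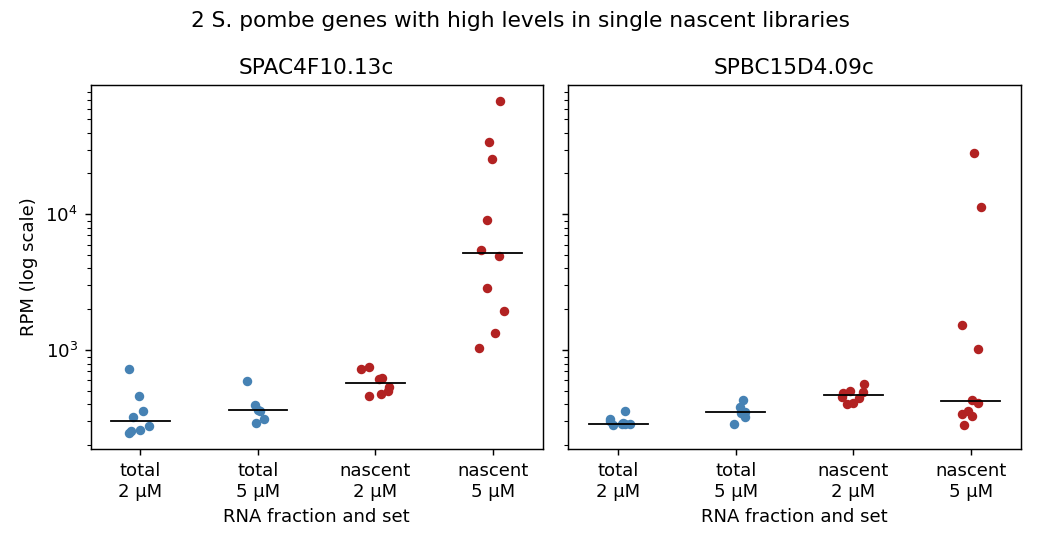
Level of SPAC4F10.13c and SPBC15D4.09c (RPM, logarithmic y axis) by RNA fraction and dose set; each point is 1 library and the line is the group median. SPAC4F10.13c has 1042 RPM or more in all 10 nascent libraries of the 5 µM set and 749 RPM or less in all others, and SPBC15D4.09c reaches 28419 and 11278 RPM in 2 libraries of that group.

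Jumps of this size were counted in every library. A gene at least 10-fold above its median over the libraries of its fraction, among genes with a median of at least 10 RPM, occurred 7 times in kin28is with 1-NAPP-1 replicate 2, 4 times in WT with DMSO replicate 2, 2 times in WT with 1-NAPP-1 replicate 2, and 1 time each in kin28is with CMK replicates 2 and 3. The other 27 labelled libraries had 0. Genes at least 10-fold below their median were more numerous, with 22 in WT with DMSO replicate 2, 19 in kin28is with 1-NAPP-1 replicate 2 and 11 in kin28is with CMK replicate 2. In nascent RNA of the 2 µM set there were 9 in WT with CMK, 4 in WT with DMSO and 1 each in kin28as with 1-NAPP-1 and kin28is with DMSO. The 14 total libraries had 0 in either direction. The 2 libraries with the most jumps in both directions are those under 200000 S. pombe reads, and the part of depth in this was not tested. At that depth a gene near 10 RPM has only a few reads, so a value 10-fold below its median can only be 0 reads. Such counts do not show a real loss. For the whole nascent to total difference, SPBC15D4.09c had a fitted log2 of 2.80 ± 0.638 (SE, edgeR adjusted p 0.00015) with all libraries. It was 0.46 without the 2 shallow libraries and 1.55 without kin28is with 1-NAPP-1 replicate 2 alone. SPAC4F10.13c had 4.34 ± 0.714 (SE, edgeR adjusted p 8.98e-07) and both genes were higher in 12 of 14 pairs. Its log2 difference was 4.15 without the 2 shallow libraries and 3.56 without kin28is with CMK replicate 2. It was 2.73 in WT alone, 2.32 in DMSO libraries alone and 2.44 with the replicate number as a block. In the 28 paired libraries it was 4.23 without a block and 1.72 with the pair as a block (edgeR adjusted p 0.0038), and for SPBC15D4.09c these values were 3.11 and 0.81 (edgeR adjusted p 0.067 with the block). Within the 2 µM set alone, their log2 differences were 0.38 (edgeR adjusted p 0.0255) for SPAC4F10.13c and 0.32 (edgeR adjusted p 0.00011) for SPBC15D4.09c.

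The S. pombe cells were never given inhibitor, so the treatment of the host cells gives a check of how far S. pombe levels move with the host culture. Between 4 CMK and 3 DMSO nascent libraries of kin28is, 0 of 4765 S. pombe genes (0%) differed by edgeR's quasi-likelihood test with Benjamini-Hochberg adjustment. At an unadjusted p under 0.05 there were 549 of the 4765 genes, more than chance alone gives on average. DESeq2 called 1, and a fit with the replicate number as a block called 14. SPAC4F10.13c had a log2 difference of 4.83 ± 1.27 (SE) with an edgeR adjusted p of 0.431. This gene varied widely among the CMK libraries, from 541 RPM in replicate 1 to 67729 RPM in replicate 2. Its failure to pass is therefore no measure of what the test can find for other genes. Replicate 1 of each treatment was marked 2 µM and the others 5 µM, and the 5 µM libraries alone also gave 0 calls. With 4 against 3 libraries, 0 calls do not show that levels stayed unmoved.

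The share of all reads that came from S. pombe is set by both yeasts. It was 18.3% to 49.5% in total RNA and 2.14% to 78.3% in nascent RNA, and exact binomial 95% intervals, which cover counting error only, were narrower than 0.3 percentage points in every library. Within pairs the ratio of S. pombe to S. cerevisiae reads was lower in nascent RNA in 13 of 14, by a mean log2 of -1.42 ± 1.41 (SD, n = 14, two-sided exact paired permutation test, p = 0.00305, which stays the same adjusted over the 2 shares). The exception was kin28is with CMK of the 5 µM set, where it was higher by 1.40 on the log2 scale. In the 2 µM set the ratio was lower in 8 of 8 pairs (mean -2.20 ± 1.19, SD, exact p = 0.0078, the smallest that 8 pairs allow), with values from -0.13 in kin28is with 1-NAPP-1 to -3.57 in WT with CMK. In the 5 µM set it was lower in 5 of 6 pairs and the mean of -0.38 ± 0.954 (SD) did not pass (exact p = 0.375). The sets differed by 1.82 (two-sided exact permutation test, p = 0.0127), and by 1.46 to 2.11 when single pairs were left out. Strain and treatment were not matched between the sets in this test either. Without pairing, over all 32 libraries, the difference was -0.70 (permutation p = 0.279). For the share in a single library, fewer S. pombe cells and less RNA per S. pombe cell cannot be told apart; the cell number is common to both members of a pair where nascent RNA was purified from that total RNA.

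S. pombe levels could also be compared between libraries with few and with many S. cerevisiae reads. The held-out nascent library had 0.144 S. cerevisiae reads per S. pombe read, and the nascent libraries of the 2 µM set had 4.71 to 45.8. Of 4766 genes with at least 10 RPM in the median of those libraries, 77 (1.62%) were at least 2-fold lower in the held-out library and 44 (0.923%) at least 2-fold higher, with a median log2 difference of -0.005. Since the held-out library is marked 5 µM, this comparison also holds the difference between the sets. Against the median of the nascent libraries of the 5 µM set, which had 0.277 to 4.15 S. cerevisiae reads per S. pombe read, 72 of 4811 genes were at least 2-fold lower and 15 at least 2-fold higher. This is 1 library and has no replicate check.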

How the data were processed

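The authors deposited whole-number read counts per gene for both yeasts in 34 libraries made with the ScriptSeq kit after ribosomal RNA depletion, and read as 100 bp single-end reads, per the labels' protocols. For nascent RNA, 100 µg of total RNA was biotinylated and purified on streptavidin, per the labels' protocols. CASAVA 1.8.2, STAR 2.3.0, HTSeq 0.6.0 and sacCer3 are named in the submitters' processing notes; the S. pombe build, the use of strand and the assignment of reads to the 2 genomes are not given in the sources used here, and reads that match both yeasts could be misplaced.

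S. pombe rows were fitted with edgeR 4.0.16 (R 4.3.3; filterByExpr with a minimum count of 10, TMM factors from S. pombe genes, glmQLFit and glmQLFTest, Benjamini-Hochberg adjusted p under 0.05) with RNA fraction as the only term, and with DESeq2 1.42.0 as an alternative. The fit was tested on simulated counts in which a small part of the genes changed, evenly split between higher and lower. In the data most genes were called and the larger differences were uneven, so the simulation does not check the fit in that setting. Single shares were tested by permutation with scipy 1.17.1. Pair differences of single genes used log2(RPM + 1). The SE of a single gene was worked back from the edgeR fit, as its absolute log2 difference divided by the square root of the F statistic. Other alternatives were another scaling, other filters, a replicate block, single sets, and leaving out each library. The members, tests and lists were chosen with earlier results of these data known. Named genes are the 2 per direction with the largest log2 difference among called genes with a mean of at least 10 RPM and the same direction in all 14 pairs; others are said to be chosen after their values were seen. Lists that rest on gene names were not used.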

Additional observations from a re-analysis of the deposited data

Results flagged for a closer look

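In 8 of 48 groups of 4 to 10 libraries examined, 1 library lay far from the others. Chance alone gives about 1 in 20 groups, but 6 of the 8 are for genes chosen after their values were seen, so the count cannot be read against that rate. WT with CMK replicate 1 was highest in nascent RNA of the 2 µM set for SPCC18B5.01c (10378 RPM) and SPCC16C4.21 (46.2 RPM), and WT with DMSO replicate 1 for SPAC19D5.11c (117 RPM). For SPAC4F10.13c, the far libraries were kin28as with 1-NAPP-1 replicate 1 in total RNA of the 2 µM set (734 RPM), WT with 1-NAPP-1 replicate 2 in total RNA of the 5 µM set (591 RPM) and kin28is with CMK replicate 2 in nascent RNA of the 5 µM set (67729 RPM). For SPBC15D4.09c they were kin28is with DMSO replicate 1 in total RNA of the 2 µM set (356 RPM) and kin28is with 1-NAPP-1 replicate 2 in nascent RNA of the 5 µM set (28419 RPM).

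There were 3 differences between the sets of libraries that passed a test of the difference itself. The nascent to total difference changed for 77 genes by edgeR's interaction test, a count that moved with the libraries and the block used. The mitochondrial share was less depleted in the 5 µM set by 0.57 on the log2 scale, and the S. pombe to S. cerevisiae read ratio by 1.82. These tests of the share and the ratio did not match pairs by strain and treatment, and kin28as was in the 2 µM set alone.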

How the results depend on the processing

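The counts of 1884 higher, 1876 lower and 819 at least 2-fold different genes stayed within 1.5 times under every alternative run, from 1520 to 2483, from 1285 to 2083 and from 776 to 1072. Leaving out single libraries gave 1710 to 1886, 1845 to 2083 and 776 to 848. Split by direction, the genes at least 2-fold different moved more, from 164 to 571 on the higher side and from 394 to 692 on the lower side. With S. pombe read totals and no composition factor their balance reversed, with 571 higher and 394 lower against 247 and 572. The 4 genes named by rule kept direction and call under every alternative run, which was partly built in by how they were picked. The pairing rests on the numbers in the labels, and gene levels gave little sign of it. Same-number libraries deviated together (r over 0.1 across genes) in 6 of 14 pairs, with a median r of 0.048. Weak shared deviations cannot show that the libraries were not paired. The 28 paired libraries gave 1853 higher and 1776 lower genes without a block, and 1852 and 1899 with the culture pair as a replicate block; SPBC15D4.09c passed without the block (3.11) and not with it (0.81). The interaction count was 77 in all 32 libraries, 33 in the 28 paired ones and 7 there with the block, and a replicate number block raised CMK against DMSO from 0 to 14. DESeq2 gave 284 genes for the dose sets in nascent RNA, 194 for the interaction and 1 for CMK against DMSO. Single libraries moved the nascent dose set count over 58 to 213, the total one over 170 to 622 and the interaction count over 40 to 148, and single pairs moved the read ratio over -1.63 to -1.25. Without the 2 shallow libraries the interaction gave 189 genes; this setting, the 28 libraries without a block and the single-library range of the interaction were chosen after seeing the data. The read ratio was -0.38 in the 5 µM set (exact p = 0.375) and -0.70 without pairing (permutation p = 0.279). The causes were not tested.

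Depth limits the low genes most: in the 2 shallowest libraries 10 RPM is about 2 reads, and 306 genes were not tested. Reads of overlapping genes, and reads that match both yeasts, cannot be placed with the sources used here.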
